A study of Mus musculus with 7 samples.

Results

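The homeostatic signature genes of microglia described here are Tmem119, Fcrls, Gpr34, Selplg, Olfml3, Sparc, Cst3, Slc2a5 and Aif1. They were chosen by name as genes known from microglia at rest, and all 9 were found, each in a row of its own, among the 40743 genes of the deposited table. Retinal microglia (rMG) are the resident macrophages of the retina. At rest they carry a set of surface receptors and secreted proteins that sets them apart from blood monocytes, and in many models of injury and disease the levels of such genes decline as the cells become activated. The set mixes sensors of the cell surface (Tmem119, Fcrls, Gpr34, Selplg), secreted proteins (Olfml3, Sparc, Cst3), a sugar transporter (Slc2a5) and a cytoskeletal protein (Aif1, or Iba1).

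RNA-seq was available for 7 libraries, all labelled Irf8 KO. Unlasered mice gave 3 of them, and mice sampled 7 days after laser injury gave 4. The laser induces choroidal neovascularisation (3 to 6 laser spots per eye). By the methods, every mouse was Irf8-/- Cx3cr1 GFP/+ on a C57BL/6J background without the Crb1 mutation, so both groups lack Irf8 by design and carry GFP in place of one Cx3cr1 allele. Age is given only as adult. Each library held about 10000 sorted CD45low CD11b+ GFP+ Ly6C- Ly6G- cells pooled from 3 to 4 mice. For lasered mice only the central 70% of the retina was used, so laser injury and retinal region cannot be told apart. No wild-type libraries were analysed here, so the question answered is how the signature genes of Irf8 KO microglia compare between unlasered and lasered retinae.

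Levels are given as CPM, reads scaled to the reads counted to genes in a library. Unlasered libraries held 20427558 to 36022954 such reads, lasered libraries 37133297 to 45919042. Reads at Irf8, listed jointly with the overlapping gene Gm20388, stood at 489 to 529.9 CPM in unlasered and at 463 to 582 CPM in lasered libraries. Such summed reads do not show whether an intact Irf8 transcript is made. The loss of Irf8 could therefore not be checked here, and the libraries are named as labelled throughout. All 10 general microglia and macrophage markers, among them Csf1r and C1qa, passed the filter on low values, and their summed level was 31247 to 36285 CPM in unlasered and 31422 to 37165 CPM in lasered libraries. Rod photoreceptor markers summed to 2216 to 19929 CPM in unlasered and to 317 to 1010.1 CPM in lasered libraries, so that they made up as much as 1.99% of a library. Lasered library 4 stood apart for several of the signature genes, and values without it are given where it decides a result.

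None of the 9 signature genes differed between lasered and unlasered libraries at an adjusted p of 0.05 (0 of 9, limma on log2(CPM + 1) with Benjamini-Hochberg adjustment over 17496 genes), where 6.93% of all tested genes did. With unadjusted p-values 4 of 9 lay under 0.05, against 22.7% of all genes. Of these 4, Slc2a5, Cst3 and Gpr34 were lower after laser (11.6% of all genes) and Aif1 was higher (11.0%). edgeR on recovered reads also called 0 of 9 (7.24% of all genes), and DESeq2 called 1 of 9, Slc2a5 (13.2% of all genes). In all 9 genes the ranges of the 2 groups overlapped, whereas 21.0% of all tested genes had groups without overlap. The log2 fold changes were positive for 4 genes and negative for 5, from -0.96 to 0.56, with a median of -0.05 against -0.01 over all tested genes. For 7 of the 9 genes the 95% interval of the change lay within a doubling and a halving, as it did for 72.7% of all tested genes and 87.3% of those with a mean of at least 100 CPM. Since a sorted population was measured, fewer cells of a kind and less RNA per cell cannot be told apart.

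**Figure D1:**
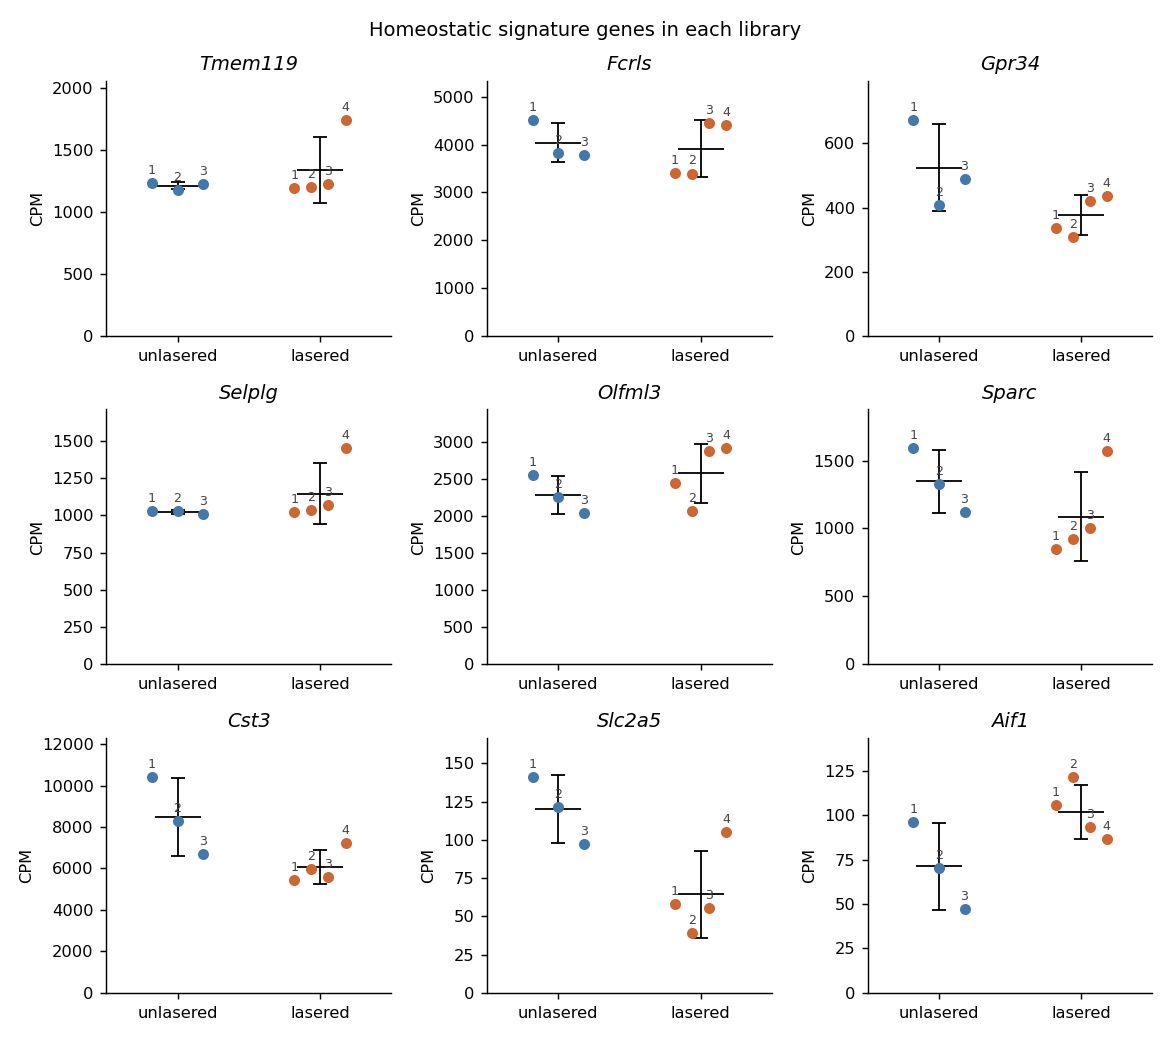
CPM (vertical axes, from 0) of the 9 signature genes in each of the 3 unlasered (blue) and 4 lasered (orange) libraries, with the library number above each point, the group mean as a line and the SD as bars. The groups overlap in every panel, and lasered library 4 is the highest lasered library in 7 of the 9 panels.

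Among the surface proteins, Tmem119, a transmembrane protein widely used to tell microglia from infiltrating macrophages (ENSMUSG00000054675, chromosome 5 of GRCm38, 113793729 to 113800516), is described first. It was measured at 1232, 1175 and 1222 CPM in unlasered libraries 1, 2 and 3 and at 1189, 1198, 1219 and 1739 CPM in lasered libraries 1 to 4. Thus 3 of the 4 lasered libraries lay inside the narrow unlasered range and library 4 lay far above it. Its log2 fold change was 0.12 (95% interval -0.21 to 0.46, adjusted p = 0.675 from limma). Without lasered library 4 it was -0.0085 and with it positive, so the sign of the change rested on that library.

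Selplg encodes PSGL-1, a ligand of selectins on myeloid cells, and lies close to Tmem119 on chromosome 5 (ENSMUSG00000048163, 113818536 to 113832644). Its levels were 1029, 1029 and 1009 CPM in unlasered and 1023, 1038, 1069 and 1448 CPM in lasered libraries. As for Tmem119, lasered library 4 stood alone above values that were otherwise nearly level. The coefficient of variation among unlasered libraries was 1.15% for Selplg and 2.51% for Tmem119, against a median of 15.3% over the 1899 tested genes with a mean of at least 100 CPM. Counting error alone would give 0.582% and 0.535% for these genes. The Selplg log2 fold change was 0.15 (95% interval -0.16 to 0.46, adjusted p = 0.584 from limma) and 0.03 without lasered library 4.

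Fcrls, an Fc receptor-like protein with a scavenger receptor domain that is enriched in mouse microglia (ENSMUSG00000015852, chromosome 3, 87250758 to 87263738), was the most abundant of the surface proteins. It reached 4514, 3821 and 3778 CPM in unlasered and 3408, 3394, 4447 and 4408 CPM in lasered libraries. Lasered libraries 3 and 4 lay within the unlasered range and libraries 1 and 2 below it. The log2 fold change was -0.05 (95% interval -0.36 to 0.26, adjusted p = 0.861 from limma), the smallest among the 9 genes, and its sign turned with median-of-ratios scaling (0.030) and without unlasered library 1 or lasered library 1 or 2.

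Gpr34 encodes a G protein-coupled receptor for lysophosphatidylserine (ENSMUSG00000040229, chromosome X, 13632089 to 13640858) and lies within the span of Cask on the other strand, without overlap of exons. It was read at 673, 409 and 489 CPM in unlasered and at 336, 309.6, 422 and 437 CPM in lasered libraries. Only unlasered library 2 lay within the lasered range. The mean was 524 ± 135 CPM (SD, n = 3 libraries) without laser and 376 ± 62.8 CPM (SD, n = 4) after laser. The log2 fold change of -0.46 (95% interval -0.90 to -0.03) had an adjusted p of 0.195 from limma, and over the alternatives the adjusted p lay between 0.124 and 0.487. Without unlasered library 1, the highest, the log2 fold change was -0.27.

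Of the secreted proteins, Olfml3, an olfactomedin-domain glycoprotein (ENSMUSG00000027848, chromosome 3, 103722222 to 103738001), was measured at 2549, 2256 and 2039.9 CPM in unlasered and at 2442, 2069, 2876 and 2911 CPM in lasered libraries. Lasered libraries 3 and 4 lay above all unlasered libraries, and libraries 1 and 2 among them. Its log2 fold change was 0.17 (95% interval -0.16 to 0.49, adjusted p = 0.552 from limma). It ranged from 0.089 without unlasered library 3 to 0.27 without lasered library 2.

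Sparc, a matricellular protein that binds collagen (ENSMUSG00000018593, chromosome 11, 55394500 to 55423183), had 1589, 1327 and 1122 CPM in unlasered and 847, 925, 1007 and 1570.4 CPM in lasered libraries. Lasered libraries 1 to 3 were all below the lowest unlasered library, and library 4 was just below the highest. With all libraries the log2 fold change was -0.34 (95% interval -0.82 to 0.15, adjusted p = 0.397 from limma). Without lasered library 4 it was -0.53, over 1.5 times as large, and still did not pass (adjusted p = 0.0917 from limma), and without unlasered library 1 it was -0.21 (adjusted p = 0.710 from limma). Sparc is also expressed by endothelial cells and pericytes. The 10 endothelial markers summed to 43.0 to 77.2 CPM in unlasered and to 24.9 to 36.0 CPM in lasered libraries, lower in every lasered library. Of the 4 that could be tested 1 passed as lower, where 3.07% of all tested genes did. This was Egfl7, a protein secreted by endothelial cells and not listed in a row of its own (log2 fold change -1.58, adjusted p = 0.0116 from limma). Pecam1 (-0.28), Kdr (-0.61) and Flt1 (0.05) had overlapping groups and did not pass. Pecam1 and Kdr were detected in every library. Cdh5, Esam and Ramp2 stayed under 1 CPM in each, and Cldn5 had at most 3 reads in each. Pecam1 and Egfl7 made up most of every endothelial sum. The 10 pericyte and fibroblast markers summed to 2.54 to 6.36 CPM in unlasered and 3.01 to 5.12 CPM in lasered libraries. The part of such cells in the Sparc values was not tested.

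Cst3 encodes cystatin C, a secreted inhibitor of cysteine proteases such as the cathepsins (ENSMUSG00000027447, chromosome 2, 148871722 to 148875692). It was the most abundant of the 9 genes, and ranked 4 among all listed genes by its mean CPM in unlasered and 8 in lasered libraries. The levels were 10418, 8309 and 6676 CPM in unlasered and 5459, 5988, 5606 and 7246 CPM in lasered libraries. Only unlasered library 3 and lasered library 4 overlapped. The log2 fold change of -0.46 (95% interval -0.83 to -0.10, a fold of 0.725) had an adjusted p of 0.127 from limma. Without unlasered library 3 the value was -0.62 and passed (adjusted p = 0.0466 from limma, where 7.31% of all genes passed), whereas without unlasered library 1 it was -0.30 (adjusted p = 0.340 from limma). Over the alternatives the adjusted p lay between 0.0466 and 0.340. Cst3 is expressed by many cell types. The summed rod markers were lower in every lasered library than in any unlasered one. The 10 Müller glia and astrocyte markers summed to 545 to 799 CPM in unlasered and 192 to 502 CPM in lasered libraries. Slc1a3, with overlapping groups, was the most abundant of these glial markers. Of 9 tested, 6 fold changes were negative and 3 positive. Gfap passed as higher and Aqp1 as lower, where 6.93% of all tested genes passed. Both stood at low levels. Gfap had 0 to 1.53 CPM in unlasered and 2.18 to 3.87 CPM in lasered libraries, and Aqp1 had 3.38 to 28.2 and 0.385 to 1.15 CPM. The part of rods and these glia in the Cst3 values was not tested.

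The largest fold change among the 9 genes belonged to Slc2a5, which encodes GLUT5, a fructose transporter that in the brain is characteristic of microglia (ENSMUSG00000028976, chromosome 4, 150119283 to 150144169). It was measured at 141, 122 and 97.0 CPM in unlasered and at 58.0, 39.1, 55.3 and 105 CPM in lasered libraries. Lasered library 4 alone reached into the unlasered range. The mean was 120.0 ± 22.1 CPM (SD, n = 3) without laser and 64.3 ± 28.3 CPM (SD, n = 4) after laser. The log2 fold change of -0.96 corresponds to a fold of 0.512 (95% interval 0.324 to 0.810 on the scale of CPM + 1) and missed the threshold (adjusted p = 0.0862 from limma). Without lasered library 4 it was -1.23 and passed (adjusted p = 0.0223 from limma, where 4.59% of all genes passed), as it did with DESeq2 on all libraries (-0.88, adjusted p = 0.0413). Over the alternatives the adjusted p lay between 0.0223 and 0.218.

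Aif1 encodes the calcium-binding protein Iba1, the usual stain for microglia (ENSMUSG00000024397, chromosome 17, 35170991 to 35176068). Its levels were 96.1, 70.5 and 47.1 CPM in unlasered and 106, 122, 93.5 and 86.6 CPM in lasered libraries. The study reported Aif1 and Tmem119 as lower in Irf8 KO than in control microglia without laser, a comparison not made here. Lasered libraries 1 and 2 lay above all unlasered libraries, and libraries 3 and 4 only below unlasered library 1. Aif1 was the only one of the 9 genes with a 95% interval wholly above 0, with a log2 fold change of 0.56 (0.04 to 1.08, adjusted p = 0.191 from limma). It was also the most variable in unlasered libraries, with a coefficient of variation of 34.4%, where counting error alone would give 2.24%. Without unlasered library 3, the lowest, the log2 fold change was 0.29, and without unlasered library 1, the highest, it was 0.80.

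**Figure D2:**
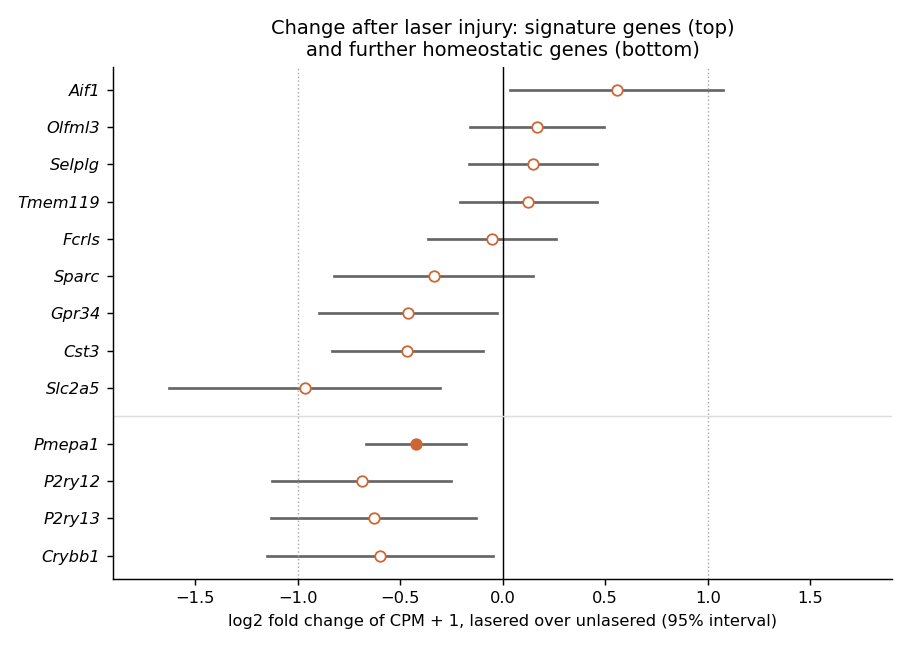
Log2 fold change of CPM + 1, lasered over unlasered (horizontal axis), with its 95% interval from limma for the 9 signature genes (top) and 4 further homeostatic genes (bottom). A filled point has an adjusted p under 0.05, and dotted lines mark a halving and a doubling. No signature gene passes, and the points run from -0.96 for Slc2a5 to 0.56 for Aif1.

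Lasered library 4 was the highest lasered library for 7 of the 9 genes, all but Fcrls and Aif1, whereas it was the highest for 21.8% of all tested genes and for 13 of 22 further homeostatic genes. Without it, the groups no longer overlapped for Sparc, Cst3 and Slc2a5 (3 of 9, against 27.8% of all tested genes without this library), all with lower lasered values. Leaving it out here was chosen after the values were seen. Unlasered library 1 was the highest of its group for 8 of the 9 genes, against 32.3% of all tested genes. Lasered libraries 3 and 4 both lay above libraries 1 and 2 for 6 of the 9 genes (Tmem119, Sparc, Olfml3, Gpr34, Selplg and Fcrls), an order that 15.3% of all tested genes and 13 of 22 further homeostatic genes shared. Aif1 had the opposite order. This order was chosen for description after the values were seen. In the same libraries the 10 monocyte and neutrophil markers summed to 136, 190.03, 33.1 and 11.6 CPM in lasered libraries 1 to 4, against 21.96 to 73.8 CPM in unlasered libraries. The largest part of the lasered sums was Ccr2, with 81.5, 128, 19.7 and 7.57 CPM, against 5.63 to 14.2 CPM in unlasered libraries. Of the 5 markers tested, 2 fold changes were positive and 3 negative. Ly6g and Mpo had at most 3 reads in every library. The part of such cells in the levels of the signature genes was not tested.

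**Figure D3:**
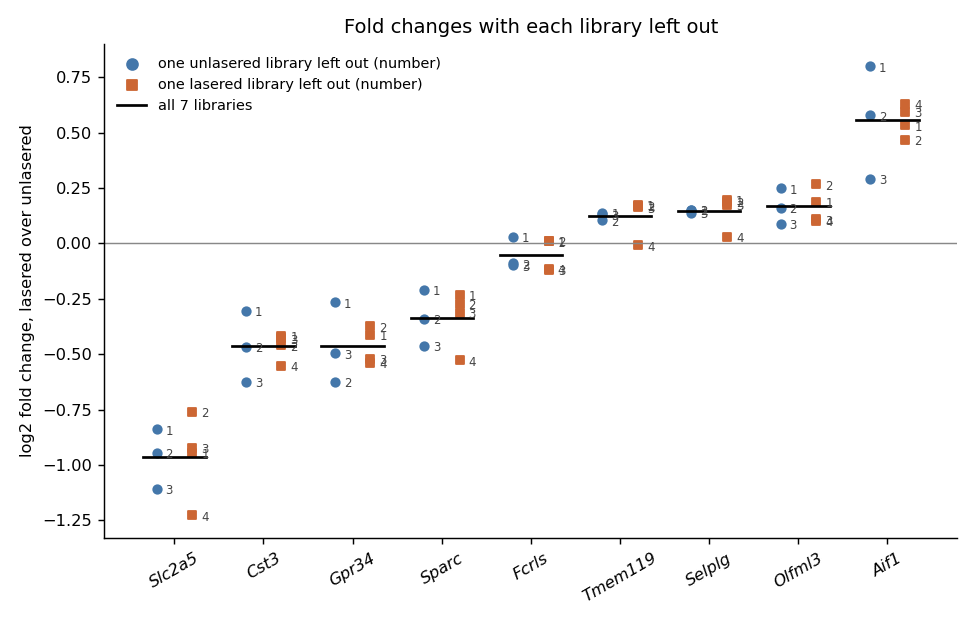
Log2 fold change after laser for the 9 signature genes with all 7 libraries (black line) and with each unlasered (circles) or lasered (squares) library left out in turn, numbered by the library left out. Leaving out lasered library 4 gives the lowest value for Slc2a5 (-1.23) and takes Tmem119 to -0.0085.

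Levels of different genes were compared per kilobase of exons in GENCODE M21, which uses the same build (GRCm38) as the submitters' processing notes. In unlasered libraries Cst3 led with 6688 ± 1482 CPM per kilobase (SD, n = 3), 3.87 times Fcrls with 1729.9 ± 177. Tmem119 followed with 522 ± 13.1, then Olfml3 with 370.3 ± 41.4, Sparc with 355 ± 61.9, Gpr34 with 251 ± 64.8 and Selplg with 239 ± 2.75 CPM per kilobase. Aif1 with 46.5 ± 16.01 and Slc2a5 with 35.3 ± 6.51 CPM per kilobase came last, so that the set spanned a factor of 189.6. The library ranges of the neighbours Olfml3 and Sparc, Sparc and Gpr34, Gpr34 and Selplg, and Aif1 and Slc2a5 overlapped. Gpr34 stood above Selplg through unlasered library 1 alone, and in the other two unlasered libraries, as by the median, Selplg was the higher. After laser Selplg (268 ± 47.5 CPM per kilobase, n = 4) was above Gpr34 (179.9 ± 30.1) with ranges apart, and the rest of the order was the same. Aif1 (66.5 ± 10.01) and Slc2a5 (18.9 ± 8.32 CPM per kilobase) were also apart, by a factor of 3.52 between their means, and the span of the set was 254. Cst3, Fcrls, Tmem119, Aif1 and Slc2a5 held places 1, 2, 3, 8 and 9 in each of the 7 libraries. With the longest transcript in place of all exons, Sparc moved from place 5 to place 3 in unlasered libraries. With that length Selplg (436 to 445 CPM per kilobase) was above Gpr34 (196 to 322) without laser too, so these genes did not change order after laser. The middle of the order thus depends on the length used.

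**Figure D4:**
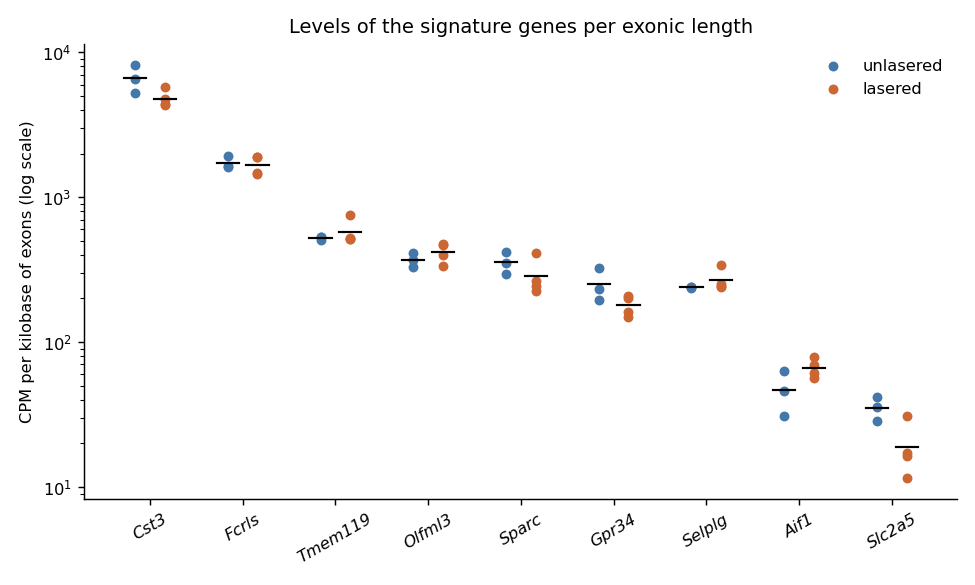
CPM per kilobase of exons (vertical axis, log scale) of the 9 signature genes in unlasered (blue) and lasered (orange) libraries, with the mean of each group as a line. The genes are ordered by their mean in unlasered libraries, from Cst3 at 6688 to Slc2a5 at 35.3 CPM per kilobase.

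Promoter sequences from RefSeq (GRCm38.p6, from 250 bases before to 50 after the start) were matched for 6 of the 9 genes, Cst3, Fcrls, Olfml3, Slc2a5, Sparc and Aif1, and not for Tmem119, Gpr34 and Selplg. IRF8 acts on DNA together with partners, on interferon response elements and on composite elements with ETS factors such as PU.1, and TGF-beta signals through SMAD proteins help to maintain the resting state of microglia. The letters GAAA, any 2 bases and GAAA (interferon response core), GGAA, any 2 bases and GAAA (ETS-IRF composite core), GGAAGT (PU.1 core) and CAGACA (SMAD type) were therefore searched on both strands. The interferon response letters stood in 1 of 6 promoters, that of Aif1, and in 3.44% of 32851 RefSeq promoters of this length. The composite letters stood in 0 of 6 and in 2.72% of all promoters. The PU.1 letters were found in 1 of 6, that of Fcrls (23.8% of all promoters), and the SMAD-type letters in 3 of 6, those of Fcrls, Slc2a5 and Sparc (21.0% of all promoters). Shown here are the promoters of Aif1 (chr17:35176003-35176302, minus strand), the gene with the largest positive fold change and the only one of the 6 with interferon response letters, of Slc2a5 (chr4:150119094-150119393, plus strand), with the largest negative fold change, and of Fcrls (chr3:87263475-87263774, minus strand), with the PU.1 letters. Each is written 5′ to 3′ in the direction of the gene, with matches in capitals.
Aif1: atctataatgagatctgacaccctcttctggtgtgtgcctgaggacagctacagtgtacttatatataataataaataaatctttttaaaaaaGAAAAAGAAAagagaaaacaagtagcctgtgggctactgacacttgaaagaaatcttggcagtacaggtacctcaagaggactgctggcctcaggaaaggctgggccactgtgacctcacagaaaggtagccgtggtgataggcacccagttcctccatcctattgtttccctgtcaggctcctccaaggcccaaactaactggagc
Slc2a5: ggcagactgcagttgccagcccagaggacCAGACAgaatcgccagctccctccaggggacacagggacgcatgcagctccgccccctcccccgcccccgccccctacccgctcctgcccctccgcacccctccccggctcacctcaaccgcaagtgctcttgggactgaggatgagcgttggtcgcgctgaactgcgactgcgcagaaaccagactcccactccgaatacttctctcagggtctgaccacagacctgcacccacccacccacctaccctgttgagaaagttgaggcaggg
Fcrls: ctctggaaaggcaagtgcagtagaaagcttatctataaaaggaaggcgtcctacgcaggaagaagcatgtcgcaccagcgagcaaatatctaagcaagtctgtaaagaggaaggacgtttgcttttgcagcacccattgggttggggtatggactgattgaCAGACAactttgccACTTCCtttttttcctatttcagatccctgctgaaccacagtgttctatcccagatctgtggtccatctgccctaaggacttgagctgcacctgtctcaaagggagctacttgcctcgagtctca
In the Aif1 promoter the interferon response letters read GAAAAAGAAA at positions 94 to 103 of the printed sequence, and in the Fcrls promoter ACTTCC is the PU.1 core on the other strand. A match describes these letters only, and no binding was measured.

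A further 24 genes known as homeostatic microglia genes were counted in the same test. Of these, 22 passed the filter on low values, which Sall1 and Upk1b did not. Lower levels after laser passed the test for 1 of 22 and higher levels for 0 of 22, where 3.07% of all tested genes were lower. The median log2 fold change was -0.21 against -0.01 over all tested genes, with 17 of 22 negative. The gene that passed was Pmepa1, an inhibitor of TGF-beta signalling that is itself induced by TGF-beta, with 1185 ± 18.2 CPM (SD, n = 3) in unlasered and 886 ± 81.6 CPM (SD, n = 4) in lasered libraries and no overlap between them. Its log2 fold change was -0.42 (adjusted p = 0.0496 from limma), and it passed in 2 of 14 alternatives, with an adjusted p between 0.0155 and 0.177. The 3 largest changes in the list belonged to P2ry12 and P2ry13, receptors for extracellular nucleotides, with -0.69 (adjusted p = 0.0693 from limma) and -0.63 (adjusted p = 0.129 from limma), and Crybb1, a crystallin, with -0.60 (adjusted p = 0.185 from limma). P2ry12 passed with DESeq2 (adjusted p = 0.0312) and without lasered library 4 (adjusted p = 0.0403 from limma). Sall3, a transcription factor named here after its values were seen, passed as higher without unlasered library 3 (log2 fold change 0.64, adjusted p = 0.0391 from limma, against 0.35 and 0.395 with all libraries).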

How the data were processed

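Per the labels and the methods, the authors removed adapter-containing and duplicate reads (cutadapt, FastUniq), aligned the rest with Bowtie2 (GRCm38), used HTSeq with annotation version 90 to count genes, and normalised with DESeq2 to values headed TPM. Tool versions are not given in the sources used here. The deposited values are CPM: 100% of values are whole multiples (within 0.0001 CPM) of the value of 1 read, whatever the gene's length, so whole reads were recovered. 3 reads correspond to 0.0653 to 0.147 CPM. Duplicate removal and counts without molecular identifiers leave counting error a lower limit. The SMARTer and Nextera XT kits named in the methods do not mark strand.

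The 2 groups were tested with limma 3.58.1 (R 4.3.3; trend and robust empirical Bayes, two-sided) on log2(CPM + 1) for genes reaching 1 CPM in 3 or more libraries, which understates changes of low genes. The procedure was tested on simulated data. Named genes are the 9 signature genes and, of the further list, those that passed plus the 3 with the largest absolute change. Marker genes were named after their values were seen. Genes with a similar pattern were to be sought only for signature genes that passed, so none is given. Alternatives were a pseudocount of 0.1, no filter, 10 CPM, median-of-ratios scaling, edgeR 4.0.16, DESeq2 1.42.0, the replicate number as a block and each library left out. The genes and lists were chosen with earlier results of these data known. Other marker lists, with summed CPM in unlasered and lasered libraries, were border macrophages (2826 to 3118 and 1953 to 2243), pigment epithelium (33.3 to 39.7 and 33.8 to 38.3) and immediate early genes (504 to 530.1 and 403 to 713). Of 8 border macrophage markers tested, 2 passed as lower, Pf4 and Ms4a7, where 3.07% of all tested genes did. Among the 8, 4 log2 fold changes were negative and 4 positive, with a median of 0.04. The study reported Mrc1, a member of this list, as higher in Irf8 KO than in control retinal microglia. The list may therefore not separate border macrophages from the sorted microglia. Other steps ran in Python 3.11.15 (pandas 2.3.3, matplotlib 3.10.9).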

Additional observations from a re-analysis of the deposited data

Results flagged for a closer look

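Of 13 genes checked for a single outlying value among the 4 lasered libraries, 2 had one by Dixon's test. The nominal rate of this test is about 1 in 20 for independent, normally distributed values. How many of all tested genes had such a value was not counted, so the 2 cannot be read as an excess. Lasered library 4 held 1739 CPM of Tmem119, with 1219 CPM the next highest value. The same library held 1448 CPM of Selplg, with 1069 CPM the next highest. Both genes lie on chromosome 5. Sparc, Cst3 and Slc2a5, which were not flagged, also had their highest lasered value in this library. A part of position was not tested.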

How the results depend on the processing

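Of 126 values of the 9 signature genes under 14 alternatives, 117 kept direction and side of the threshold, 3 newly passed (Slc2a5 without lasered library 4 and with DESeq2, Cst3 without unlasered library 3) and 6 turned sign. These were Fcrls with median-of-ratios scaling (0.030) and with some libraries left out (range -0.12 to 0.030), and Tmem119 with the replicate block (-0.0085) and without lasered library 4 (range with each library left out -0.0085 to 0.17). The block takes up lasered library 4, the only library with that number. Its fold changes therefore equal those without this library and are no separate check. The count of signature genes that passed was 1 with DESeq2 and 0 to 1 with each library left out. Over all genes 1213 passed, and 385 with no filter, 652 with the filter at 10 CPM, 2318 with DESeq2 and 264 to 1248 with each library left out. Of the further homeostatic genes 0 passed with no filter, with the filter at 10 CPM, with median-of-ratios scaling and with edgeR, 2 with DESeq2 and 0 to 1 with each library left out, where the single calls were Sall3, higher, without unlasered library 3, and P2ry12, lower, without lasered library 4. The cause was not tested. In the order of levels per kilobase, 7 of 9 genes kept their place in unlasered libraries with the median, 4 of 9 with the longest transcript, and in lasered libraries 7 of 9 with the longest transcript. Without lasered library 4 the groups did not overlap for 3 signature genes, and with it for 0. The summed CPM of the 9 genes differed by -2406 between the group means, and by -3706 to -825 with each library left out. It differed by -1302 with median-of-ratios scaling and by -13.3 without Cst3. In that last sum, higher lasered means (Olfml3, Tmem119, Selplg and Aif1) and lower ones (Sparc, Gpr34, Fcrls and Slc2a5) nearly cancelled. The small difference therefore does not show that these genes were level.

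With the replicate block (numbers 1 to 3 shared by both groups in the labels), 3 genes passed over all genes, 0 of the signature genes and 0 of the further homeostatic genes. Across genes, the departures from the group mean of libraries with the same number had correlations of -0.183, -0.126 and -0.0234. Libraries with different numbers had correlations from -0.109 to 0.205. With so few libraries these values cannot decide whether libraries of the same number were handled together.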
